A study of Mus musculus with 6 samples.

Results

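The tricarboxylic acid (TCA) cycle enzymes and the enzymes that feed alpha-ketoglutarate were followed as 31 named genes among 18493 in the table. The members are the pyruvate dehydrogenase complex, the cycle enzymes from citrate synthase to malate dehydrogenase, malic enzyme, pyruvate carboxylase, the glutamate enzymes, transaminases and D-2-hydroxyglutarate dehydrogenase. All 31 symbols were found once each, and all 31 passed the filter on low counts. Regulatory T (Treg) cells, CD4 T cells that restrain immune responses, were sorted on CD4, CD25 and YFP at 7 weeks of age from female C57BL/6 mice (spleen and lymph node), and their RNA was sequenced. The conditional knockout (cKO) mice were Foxp3cre/+ TKTfl/fl, so that Tkt, encoding transketolase of the non-oxidative pentose phosphate pathway, is removed where Foxp3-driven Cre is active. The wild-type (WT) mice were Foxp3cre/+ and so carry the same Cre. Each group had 3 mice, described as chimeric in the design text: Foxp3 is X-linked, and the YFP gate takes cells in which the Cre-bearing X chromosome is active. The study asked how this branch of sugar metabolism bears on Treg cell function.

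In the TCA cycle, acetyl groups made from pyruvate by pyruvate dehydrogenase are joined to oxaloacetate as citrate and oxidised through isocitrate, alpha-ketoglutarate, succinate, fumarate and malate. Alpha-ketoglutarate is also made from glutamate, and it is the co-substrate of the TET DNA demethylases and of many histone demethylases. Treg cells are known for a larger reliance on mitochondrial oxidation than conventional effector T cells.

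Libraries held 17180577 to 18215168 estimated reads, and counts are given as CPM (reads scaled to a common library size) after scaling by the trimmed mean of M values. The sorted cells carried the markers of their label: Foxp3 was at 559 to 676 CPM in cKO and 458 to 686 CPM in WT libraries. The 6 listed Treg markers summed to 3759 to 4063 CPM in cKO and 4176 to 4606 CPM in WT, without overlap. Of the 6, 0 had an adjusted p under 0.05 in edgeR's test, and Ctla4 ranged from 492 CPM in cKO3 to 1727 CPM in WT2. Myeloid markers (6 listed) summed to 39.9 to 96.6 CPM in cKO, 65.9 CPM in WT2 and at most 35.6 CPM in WT1 and WT3. Cell cycle genes (8 listed) summed to 435 to 549.7 CPM in cKO and 451 to 701 CPM in WT. This sum hides unlike patterns. Pcna, its largest part in cKO1, was at 239 CPM there and 337 CPM in WT2, and at 149 to 213 CPM elsewhere. Mki67, Top2a, Ccnb1, Cdk1, Birc5 and Mcm5 were each lowest in cKO1 (Mki67 35.3 CPM, against 78.3 to 136 CPM in the other libraries). Tkt stood at 52.5, 44.8 and 31.9 CPM in the cKO libraries, against 126, 97.1 and 121 CPM in the WT libraries. Its log2 fold change was -1.41 ± 0.19 (SE), with an adjusted p of 0.0516 in edgeR's quasi-likelihood test, and the labels do not name the floxed exons. On the first principal component, with 36.1% of the variance, cKO1 (score 33.2) and WT2 (25.4) lay at one end, cKO3 (-18.4), WT1 (-25.9) and WT3 (-22.4) at the other, and cKO2 (8.11) between them. The 8 listed genes of handling and stress summed to 10938 CPM in cKO1 and 11836 CPM in WT2, against 9269 and 6188 CPM in cKO2 and cKO3 and 8346 and 8615 CPM in WT1 and WT3. Within that list the genes went opposite ways. Tnfaip3, an inhibitor of NF-kappaB signalling, was at 4612, 2332 and 1152 CPM in cKO1, cKO2 and cKO3 and at 2060.4, 4898 and 2195 CPM in WT1, WT2 and WT3. The heat shock gene Hspa1a was at 5.35, 26.4 and 136 CPM in cKO1, cKO2 and cKO3 and at 163, 12.7 and 125 CPM in WT1, WT2 and WT3. Summed erythroid markers (6 listed) reached 197 CPM in cKO1, against 3.34 and 3.87 CPM in the other cKO libraries and 0.277 to 5.56 CPM in WT. Stromal markers (6 listed) summed to 15.6 to 20.3 CPM in cKO, against 2.99, 19.4 and 4.17 CPM in WT1, WT2 and WT3. Whether these differences between libraries bear on the enzymes was tested only by leaving libraries out.

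The pathway as a whole was at a like level in all libraries. The summed level of the 31 genes was 2512, 2529 and 2472 CPM in the cKO libraries and 2459, 2457 and 2472 CPM in the WT libraries. That is 0.239% to 0.255% of the estimated reads of a library. In these bulk samples, fewer expressing cells and less RNA per cell cannot be told apart.

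Among genes, levels are compared per length, as the authors' FPKM (fragments per kilobase of transcript, scaled for depth). Mdh2, the mitochondrial malate dehydrogenase, was the most abundant member, at 126, 140.5 and 139.7 FPKM in cKO and 144, 123 and 140.1 FPKM in WT. The groups overlap. Next came Idh3g, the gamma subunit of the NAD-dependent isocitrate dehydrogenase, with 74.8 ± 1.47 FPKM in cKO and 74.8 ± 2.42 FPKM in WT (SD, n = 3 each). Cs, citrate synthase, which admits acetyl groups to the cycle, had 67.1 ± 5.16 FPKM in cKO and 66.1 ± 11.9 FPKM in WT (SD, n = 3 each). At the low end were Idh1, Gpt2 and Pcx. Gpt2, the mitochondrial alanine transaminase, had 0.720, 0.850 and 0.710 FPKM in cKO and 0.620, 0.910 and 0.750 FPKM in WT. Pcx, pyruvate carboxylase, which refills oxaloacetate from pyruvate, had 0.470, 0.660 and 0.770 FPKM in cKO and 0.790, 0.580 and 0.980 FPKM in WT. Of the 31 members, 24 lay above 9.50 FPKM, the median of all genes tested.

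**Figure D1:**
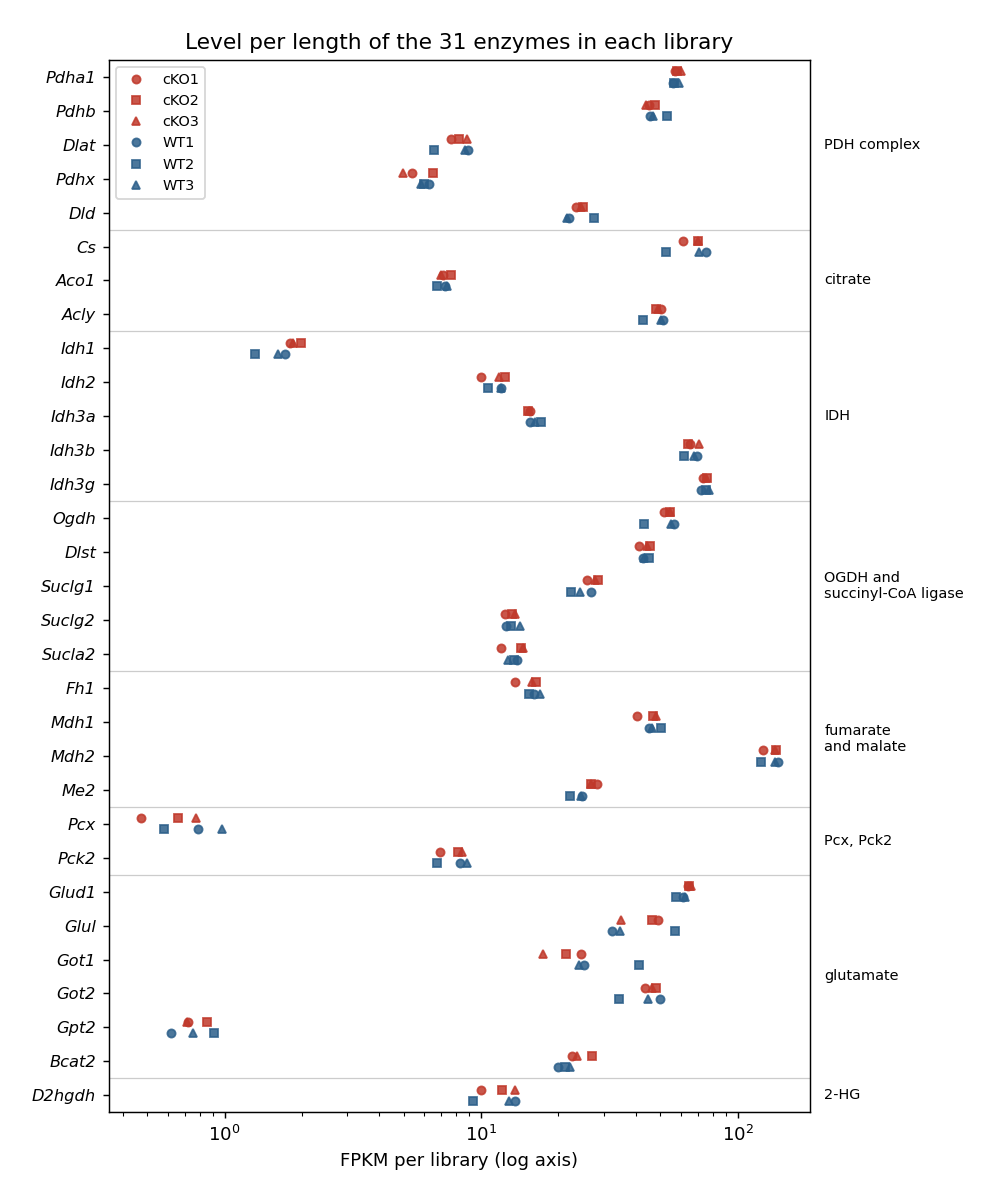
Level of each of the 31 enzymes in FPKM (x axis, log scale), with cKO libraries (red) above WT libraries (blue) on each row and marker shape giving the library number. Levels run from Pcx and Gpt2, below 1 FPKM, to Mdh2, at 123 FPKM and above.

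No member passed the test between cKO and WT. With edgeR, 0 of 31 were called at an adjusted p under 0.05, where 0.210% of the 12887 genes tested were called (0.00776% higher and 0.202% lower in cKO), and 1 member had an unadjusted p under 0.05 (background 7.69%). DESeq2 and limma-voom also called 0 members, where they called 177 and 19 of the 12887 genes tested. They had 2 and 1 members at an unadjusted p under 0.05 (6.45% and 3.23%, all genes 6.55% and 7.88%). The median log2 fold change (cKO over WT) was 0.01 for the members and 0.00 for all genes tested. The median size of the change, whichever its sign, was 0.04 for the members and 0.11 for all genes, on the log2 scale. Among 9824 genes within the members' range of mean CPM it was 0.09. Because a missed threshold does not show equal levels, the intervals are given: for 27 of 31 members the 95% interval of the fold change lay within 1.5-fold either way, and for 19 within 1.25-fold. That is 87.1% of members within 1.5-fold, against 64.2% of all genes and 76.4% of the 9824 genes within the members' range of mean CPM. The 4 members with wider intervals were Idh1, Pcx, Got1 and Glul.

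**Figure D2:**
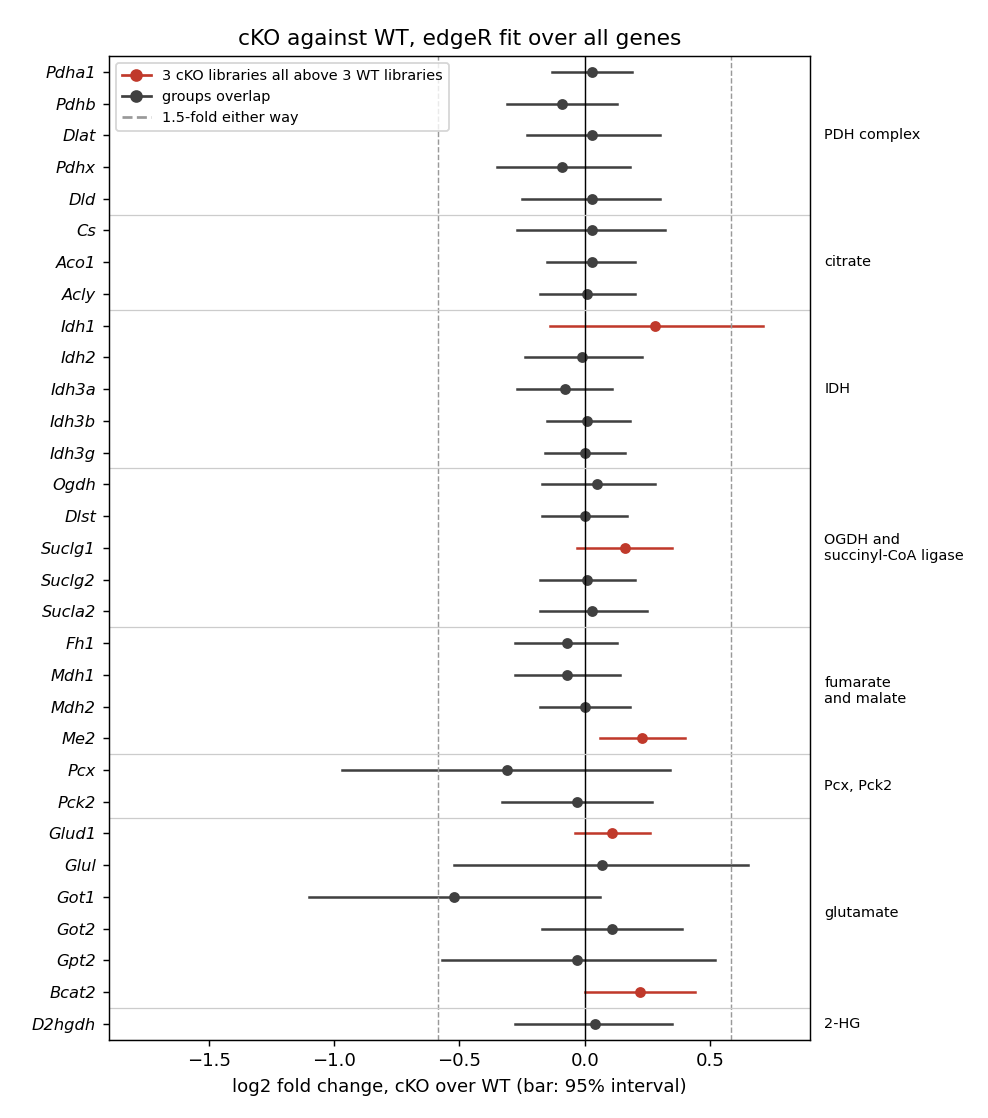
Log2 fold change of each enzyme, cKO over WT, with its 95% interval (bar) from the edgeR fit over all genes, and dashed lines at 1.5-fold either way. Red marks the 5 members whose cKO libraries all lay above their WT libraries in CPM, and the bars of Idh1, Pcx, Got1 and Glul cross a dashed line.

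The pyruvate dehydrogenase complex links glycolysis to the cycle. Its E1 subunits Pdha1 and Pdhb stood at 58.4 ± 1.64 and 45.5 ± 1.84 FPKM in cKO and at 57.3 ± 1.81 and 48.4 ± 4.06 FPKM in WT (SD, n = 3 each). The mRNAs of the E2 core Dlat and of the E3-binding protein Pdhx were less abundant, at 8.22 ± 0.560 and 5.61 ± 0.791 FPKM in cKO and 8.05 ± 1.29 and 6.03 ± 0.234 FPKM in WT. Dld, the E3 subunit shared with 2-oxoglutarate dehydrogenase, lay between, at 24.2 ± 0.779 FPKM in cKO and 23.8 ± 3.28 FPKM in WT. Pdhb had the lowest p of the complex and stood at 68.6, 69.5 and 63.4 CPM in cKO and 65.8, 80.3 and 68.4 CPM in WT. These values overlap, and its log2 fold change was -0.09 ± 0.10 (SE, adjusted p = 0.924). All 5 subunits had log2 fold changes between -0.09 and 0.03.

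**Figure D3:**
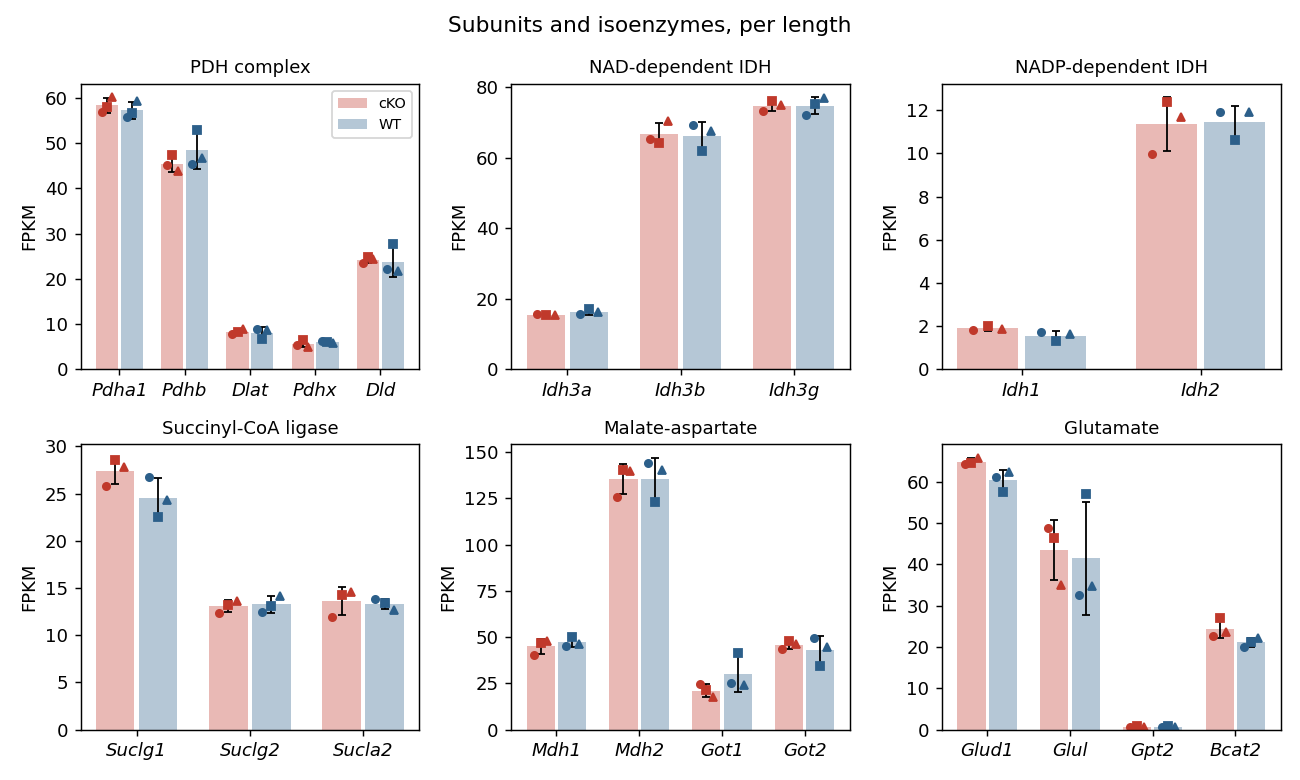
FPKM of subunits and isoenzymes in cKO (red, left) and WT (blue, right); bars are means of 3 libraries, error bars are SD, and points are libraries. Dlat and Pdhx lie far below Pdha1 and Pdhb, and Idh3a far below Idh3b and Idh3g, in both groups.

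Around citrate, Cs, the cytosolic aconitase Aco1 and the citrate lyase Acly, which turns exported citrate back into acetyl-CoA, had log2 fold changes of 0.03, 0.03 and 0.01. Aco1, with the lowest p of the 3, stood at 32.0, 33.1 and 30.0 CPM in cKO and at 31.2, 30.3 and 31.9 CPM in WT. The groups overlap, and the 95% interval of its fold change was 0.901 to 1.15 (adjusted p = 0.984).

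The isocitrate dehydrogenases make alpha-ketoglutarate. Per length, the catalytic subunit Idh3a of the NAD-dependent enzyme was at 15.4 ± 0.135 FPKM in cKO and 16.3 ± 0.790 FPKM in WT, well below its partners. Idh3b was at 66.7 ± 3.25 FPKM in cKO and 66.2 ± 3.99 FPKM in WT. Idh3a stood at 38.6, 36.5 and 36.6 CPM in cKO and at 36.9, 42.5 and 38.9 CPM in WT, with overlapping groups (log2 fold change -0.08 ± 0.08 SE, adjusted p = 0.918). Idh2, the mitochondrial NADP-dependent enzyme, had 11.4 ± 1.26 FPKM in cKO and 11.5 ± 0.754 FPKM in WT. Idh1, its cytosolic and peroxisomal counterpart, was scarce, at 4.19, 4.47 and 4.12 CPM in cKO and 3.83, 3.05 and 3.60 CPM in WT. Each cKO library lay above each WT library, but the difference did not pass the test (log2 fold change 0.28 ± 0.18 SE, 95% interval of the fold 0.908 to 1.63, adjusted p = 0.824). The ratio of Idh1 to Idh2 reads within a library was 0.240, 0.214 and 0.210 in cKO and 0.193, 0.166 and 0.180 in WT. This log2 ratio was 0.30 higher in cKO, with p = 0.1 in an exact two-sided permutation test, the smallest that 3 libraries against 3 allow, and 0.75 after adjustment over the 15 ratios compared.

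Oxidation of alpha-ketoglutarate runs through Ogdh and Dlst, the E1 and E2 subunits of 2-oxoglutarate dehydrogenase, at 53.5 ± 1.74 and 43.8 ± 2.26 FPKM in cKO and 51.6 ± 7.40 and 43.6 ± 1.23 FPKM in WT. Unlike in pyruvate dehydrogenase, the mRNA levels of E1 and E2 were close, with a ratio of Ogdh to Dlst FPKM of 1.22 ± 0.0273 in cKO and 1.19 ± 0.200 in WT. Succinyl-CoA ligase pairs the alpha subunit Suclg1 with either the GTP-forming beta subunit Suclg2 or the ATP-forming Sucla2. Both beta subunits had nearly equal mRNA levels per length, with a ratio of Sucla2 to Suclg2 FPKM of 1.04 ± 0.0615 in cKO and 1.01 ± 0.106 in WT. Suclg1 stood at 36.6, 39.0 and 37.8 CPM in cKO and at 36.3, 31.8 and 33.2 CPM in WT. The groups do not overlap in CPM, by a small margin, and do overlap in FPKM (25.8 at the lowest in cKO, 26.8 at the highest in WT). The log2 fold change of Suclg1 was 0.16 ± 0.08 (SE, adjusted p = 0.739).

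Fh1, fumarase, stood at 24.7 ± 1.89 CPM in cKO and 26.0 ± 0.971 CPM in WT, and its log2 fold change was -0.07 ± 0.09 (SE, adjusted p = 0.939). The cytosolic Mdh1 and the mitochondrial Mdh2, which work on both sides of the malate-aspartate shuttle, had log2 fold changes of -0.07 and 0.00, with a 95% interval of the fold of 0.885 to 1.14 for Mdh2. Me2, the mitochondrial NAD-dependent malic enzyme, which turns malate into pyruvate, had the lowest p of all 31 members. It stood at 89.4, 80.5 and 82.3 CPM in cKO and at 72.5, 68.8 and 73.7 CPM in WT, so that every cKO library lay above every WT library. Its log2 fold change was 0.23 ± 0.07 (SE, fold 1.17 with a 95% interval of 1.04 to 1.32), its unadjusted p 0.0157 and its adjusted p 0.459. Over the alternatives run, the adjusted p of Me2 lay between 0.396 and 0.911. The ratio of Me2 to Mdh2 reads within a library was 0.543, 0.455 and 0.473 in cKO and 0.405, 0.431 and 0.419 in WT. These ratios do not overlap (exact two-sided permutation p = 0.1, the smallest this test allows, adjusted p = 0.75). Because Mdh2 hardly changed, they largely repeat the Me2 values and are not a separate observation.

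Pcx refills oxaloacetate and Pck2 draws on it, and both are gluconeogenic enzymes. Pcx, the least abundant member per length, stood at 1.98, 2.73 and 3.12 CPM in cKO and at 3.22, 2.45 and 4.05 CPM in WT, which overlap. Its log2 fold change of -0.31 ± 0.28 (SE, adjusted p = 0.906) came with a wide 95% interval of the fold, 0.511 to 1.27. Pck2, the mitochondrial phosphoenolpyruvate carboxykinase, was at 7.82 ± 0.796 FPKM in cKO and 7.96 ± 1.08 FPKM in WT (SD, n = 3 each), near the median of the genes tested, with a log2 fold change of -0.03 ± 0.13 (SE).

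Glutamate supplies alpha-ketoglutarate through Glud1, glutamate dehydrogenase, and through the transaminases. Glud1 stood at 210.0, 203 and 205 CPM in cKO and at 190.3, 187 and 196 CPM in WT. The groups do not overlap, but the difference is small (log2 fold change 0.11 ± 0.07 SE, adjusted p = 0.809). Bcat2, the mitochondrial branched-chain transaminase, stood at 41.2, 48.0 and 41.1 CPM in cKO and at 34.6, 38.7 and 38.7 CPM in WT. Again each cKO library was above each WT library, without passing the test (log2 fold change 0.22 ± 0.09 SE, unadjusted p = 0.0521, adjusted p = 0.656). Got1, the cytosolic aspartate transaminase of the malate-aspartate shuttle, stood at 52.0, 43.7 and 35.1 CPM in cKO and at 50.8, 87.5 and 49.1 CPM in WT. Its log2 fold change of -0.52 ± 0.25 (SE, adjusted p = 0.719) was the largest in size among the members, and WT2 alone lay far above the other libraries. Without WT2 it was -0.20 (adjusted p = 0.711). Got2, the mitochondrial form, stood at 106, 112 and 107 CPM in cKO and 115, 82.9 and 104 CPM in WT, with WT2 the lowest library. The ratio of Got1 to Got2 reads was therefore 1.05 in WT2, against 0.493, 0.390 and 0.327 in the cKO libraries and 0.443 and 0.472 in WT1 and WT3. Glul, glutamine synthetase, stood at 141, 129.9 and 97.4 CPM in cKO and at 89.9, 165 and 96.8 CPM in WT. It was high in WT2, cKO1 and cKO2 and low in the remaining libraries, and its log2 fold change was 0.07 ± 0.25 (SE, adjusted p = 0.99), or 0.40 without WT2 (adjusted p = 0.467).

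D2hgdh oxidises D-2-hydroxyglutarate, a product that competes with alpha-ketoglutarate at dioxygenases, back to alpha-ketoglutarate. It stood at 39.5, 44.2 and 48.8 CPM in cKO and at 47.9, 35.5 and 45.9 CPM in WT. The groups overlap, and the log2 fold change was 0.04 ± 0.13 (SE, adjusted p = 0.99).

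In all, Me2, Bcat2, Suclg1, Glud1 and Idh1 had cKO libraries that all lay above the WT libraries, and no member had the reverse. These 5 of 31 are 16.1%, where 6.10% of all genes tested did not overlap in the higher direction, 8.12% in the lower and 14.2% in either. None of the 5 was called, and the members were chosen with earlier results known, so the count is a description.

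The upstream sequences of Glud1, Idh1, Suclg1 and Bcat2, 4 of these 5, show how far their starts differ, and no window was used for Me2. The 250 bases before the RefSeq start (GRCm38.p6, 5′ to 3′ on the gene's strand) are printed with GC boxes (GGGCGG or CCGCCC) and CCAAT boxes (CCAAT or ATTGG) in capitals.
Glud1, chr14:34310477-34310726, plus strand: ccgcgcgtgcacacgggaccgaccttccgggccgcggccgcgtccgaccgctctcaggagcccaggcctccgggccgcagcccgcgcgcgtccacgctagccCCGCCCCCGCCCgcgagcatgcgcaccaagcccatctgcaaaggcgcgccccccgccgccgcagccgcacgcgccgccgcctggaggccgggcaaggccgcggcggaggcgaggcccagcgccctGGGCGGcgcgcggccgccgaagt
Idh1, chr1:65186480-65186729, minus strand, the outer of its RefSeq starts: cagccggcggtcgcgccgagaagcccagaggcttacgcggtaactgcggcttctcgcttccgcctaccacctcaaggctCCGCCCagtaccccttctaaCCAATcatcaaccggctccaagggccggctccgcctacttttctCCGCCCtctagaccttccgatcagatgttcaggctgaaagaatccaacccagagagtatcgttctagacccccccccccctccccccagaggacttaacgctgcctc
Suclg1, chr6:73248255-73248504, plus strand: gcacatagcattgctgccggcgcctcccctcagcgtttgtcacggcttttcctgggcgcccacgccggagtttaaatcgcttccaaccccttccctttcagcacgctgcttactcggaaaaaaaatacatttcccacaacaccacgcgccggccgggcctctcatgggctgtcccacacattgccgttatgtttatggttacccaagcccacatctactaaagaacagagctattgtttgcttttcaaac
Bcat2, chr7:45569903-45570152, plus strand, the first of its RefSeq starts here: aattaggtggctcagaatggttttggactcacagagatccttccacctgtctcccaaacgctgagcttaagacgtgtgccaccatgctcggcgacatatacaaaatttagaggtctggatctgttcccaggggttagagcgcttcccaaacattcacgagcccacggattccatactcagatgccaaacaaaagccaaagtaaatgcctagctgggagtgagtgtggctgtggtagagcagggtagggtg
Glud1 holds 3 GC boxes and no CCAAT box, Idh1 holds 2 GC boxes and 1 CCAAT box, and Suclg1 and Bcat2 hold neither. The annotated Bcat2 gene begins further upstream, at chr7:45568967, so its printed window lies within the gene, before a later start. Promoter windows of 300 bases (250 before to 50 after the start, 37 in all) were found for 29 members. A GC box on either strand was in at least 1 window of 72.4% of these members, against 38.2% of all genes, and in 67.6% of the members' windows, against 35.7% of 32851 windows of all genes. A CCAAT box was found for 55.2% of members, against 41.1% of all genes, and in 59.5% of windows, against 37.4% of all windows. The members' windows were also richer in G and C, with a median of 60.3% against 52.7% for all. The estrogen-related receptor (ERR) core AAGGTCA or TGACCTT was found for 6.9% of members, against 5.38% of all genes, and in 5.41% of windows, against 4.72% of all windows. The E-box CACGTG was found for Ogdh and Pcx only, 6.9% of members against 8.09% of all genes; counted by window, with several for Ogdh, it was 10.8% against 7.15%. All genes here means every gene with a window, whether or not expressed in these cells. That background is not matched for level, so the shares cannot tell these enzymes from expressed genes in general. Some windows of 1 gene overlap each other, and a match of letters is not a bound site.

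WT2 was the lowest or the highest of the 6 libraries for 20 of 31 members (64.5%), where it was so for 49.6% of all genes tested. It was lowest for 11, among them Cs (153 CPM, against 179 to 198 CPM in cKO and 198 and 209.8 CPM in WT3 and WT1), Ogdh, Got2 and D2hgdh. It was highest for 9, among them Got1, Glul, Dld and Pdhb. The next was WT1, for 12 of 31 members (38.7%, where it was so for 30.6% of all genes). For cKO1 the figure was 9 of 31 (29.0%, all genes 39.8%), for cKO2 and cKO3 it was 8 each (25.8%, all genes 26.0% and 31.6%), and for WT3 it was 5 (16.1%, all genes 22.4%). The spread between replicates was small for most members: the median coefficient of variation was 5.09% in cKO and 6.86% in WT, against 9.85% and 10.8% over all genes tested. That background is not matched for level, and 24 of 31 members lay above the median FPKM of the genes tested. Without WT2 and cKO1 together, 0 members were called, and Me2, Bcat2, Got1 and Dld had unadjusted p-values under 0.05, with log2 fold changes of 0.16, 0.28, -0.34 and 0.18 (adjusted p = 0.396, 0.396, 0.355 and 0.382). Those 4 are 12.9% of the members, where 11.4% of all genes tested had an unadjusted p under 0.05 in the same fit, so the share is near the background.

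**Figure D4:**
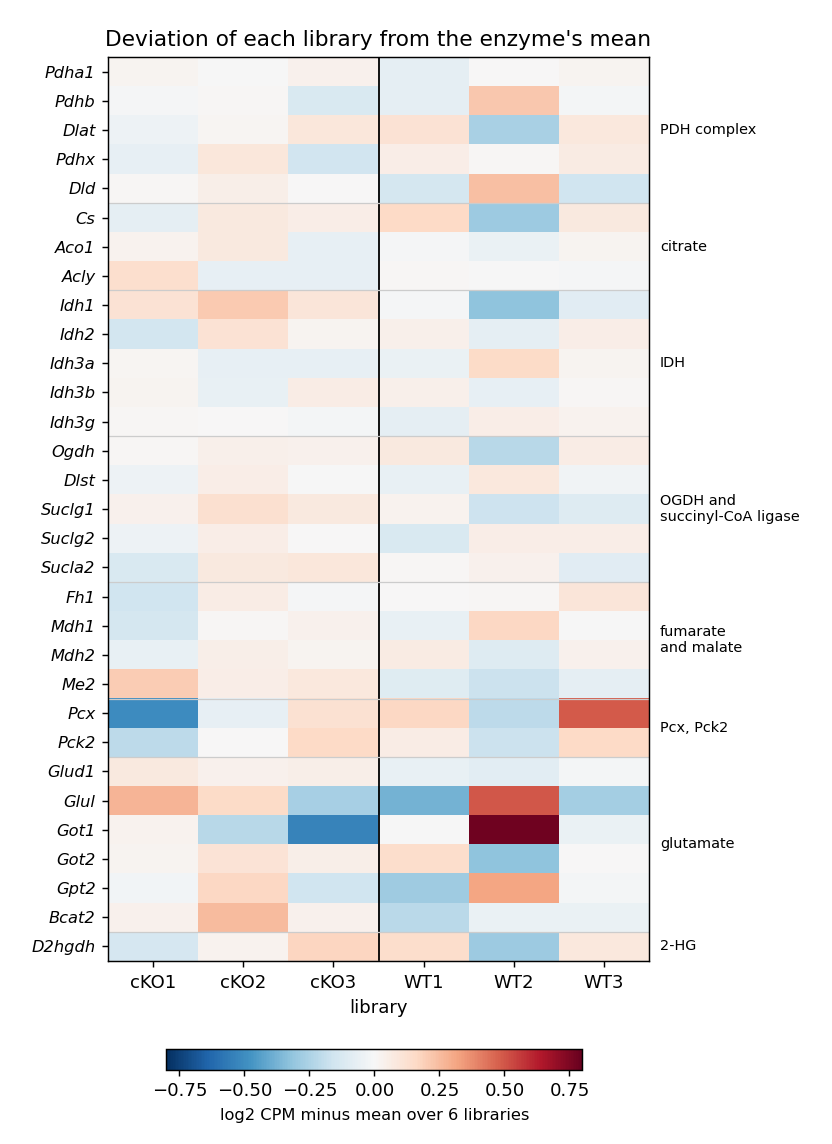
Log2 CPM of each enzyme in each library minus its mean over the 6 libraries (colour scale), with cKO libraries left of the line and WT libraries right of it. In the WT2 column Got1 and Glul are high and Cs, Got2 and D2hgdh low, while Pcx is low in cKO1 and high in WT3.

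Further genes of the pathway were not called either. Of 31 further genes listed for the cycle, its carriers and branched-chain and glutamate metabolism, 25 could be tested, and edgeR called 0 of them (1 at an unadjusted p under 0.05). Their median log2 fold change was -0.05. The lowest p belonged to Slc25a13, an aspartate-glutamate carrier (3.75 ± 0.297 CPM in cKO and 5.01 ± 0.304 CPM in WT, log2 fold change -0.42 ± 0.17 SE, adjusted p = 0.605). Dhtkd1, a relative of Ogdh that acts in lysine breakdown, followed at -0.59 ± 0.27 (adjusted p = 0.677), and then Dbt, a subunit of the branched-chain ketoacid dehydrogenase, at -0.16 ± 0.09 (adjusted p = 0.782).

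Of 22 regulators of these enzymes, 20 could be tested, and edgeR called 0 (2 at an unadjusted p under 0.05). Pdk1, a kinase that shuts off pyruvate dehydrogenase, stood at 122 ± 1.80 CPM in cKO and 101 ± 5.47 CPM in WT (SD, n = 3 each). The groups do not overlap (119 CPM at the lowest in cKO, 106 CPM at the highest in WT), as for 6.10% of all genes tested in that direction. The log2 fold change of Pdk1 was 0.27 ± 0.07 (SE, adjusted p = 0.304). Hif1a, a transcription factor of the oxygen response, stood at 294 ± 25.1 CPM in cKO and 373 ± 55.0 CPM in WT (SD, n = 3 each; log2 fold change -0.34 ± 0.12 SE, adjusted p = 0.527), with WT2 the highest library at 436 CPM. Pdpr, the regulatory subunit of pyruvate dehydrogenase phosphatase, had 0.18 ± 0.09 (SE, adjusted p = 0.702).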

How the data were processed

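RNA was measured in 6 libraries, 3 cKO and 3 WT, grouped by their titles. The submitters' processing notes list DESeq2 1.16.1, HISAT2 2.0.5 and featureCounts 1.5.0-p3, and the mouse build mm10, without saying what each did. The authors deposited estimated counts per gene, not normalized, and a second set of values per length and depth that behave as FPKM, judged from the values because the header does not name the unit. Of the 31 members, 15 had estimates that were not whole to within 0.01 in some library. Over the whole table, 45.4% to 46.3% of genes were so in each library. The cause is not stated, and reads may be shared with similar genes. Group means deposited by the authors were not used.

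Estimated counts were rounded. In R 4.3.3, genes passing filterByExpr of edgeR 4.0.16 (minimum count 10) were kept, libraries were scaled by TMM, and 12887 genes were tested with the quasi-likelihood F test, group as the only term, Benjamini-Hochberg adjusted over all genes. Standard errors come from the F statistic and 95% intervals from the matching t distribution. Code was tested on simulated data. Ratios of 15 enzyme pairs were compared by an exact permutation test. The labels give mice per group but not whether libraries pool animals, so p-values reflect only the spread among the libraries, which may be technical. Members, lists and tests were chosen with earlier results of these data known. Values per library, fold change and adjusted p are given for the 8 members with the lowest p and the lowest p of each role group. The 3 highest and 3 lowest by FPKM have their levels, per library or as mean and SD. The 3 lowest p of each further list have a fold change and adjusted p. Alternatives were DESeq2 1.42.0, limma 3.58.1 (voom and log2 FPKM), other scalings and filters, a replicate block, other empirical Bayes settings and libraries left out. Promoter windows are from RefSeq (GRCm38.p6), and protein sequences were not used here.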

Additional observations from a re-analysis of the deposited data

How the results depend on the processing

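No member was called in any of the 19 alternatives. Of the 31 log2 fold changes, 11 kept their sign throughout, among them Me2, Bcat2, Suclg1, Glud1, Idh1 and Got1, and 20 changed sign at least once, each at most 0.11 in size in the reported fit. The number of genes called over the whole table moved more, with 27 as reported, 177 with DESeq2, 43 with no low-count filter, 48 with robust empirical Bayes, 71 without WT2 and cKO1 together, 9 with limma on log2(FPKM + 1), 0 on log2(FPKM + 0.1) (929 at an unadjusted p under 0.05) and 0 to 30 with 1 library left out (30 without WT2, 0 without any other); the cause was not tested. With the replicate number as a block, 0 genes were called (811 at an unadjusted p under 0.05). Same-numbered libraries correlated at -0.28, 0.06 and 0.26 in their deviations, and other-numbered ones at -0.38 to 0.31. So few correlations cannot decide whether the numbers pair animals, which the labels do not say. Tkt was called in 7 of 19 alternatives (adjusted p from 2.2e-10 to 0.217).

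Sign changes, in log2 fold change, were as follows. Idh3g was at 0.00 with DESeq2, RLE factors and both FPKM settings and at 0.01 with upper-quartile factors. Idh2 was at 0.00 with upper-quartile factors and Mdh2 at 0.00 by library size only. Suclg2 was at -0.02 with both FPKM settings, and Gpt2 at 0.00 and 0.01. Without WT2 and cKO1 together the values were -0.05 for Cs, 0.02 for Idh2 and Idh3g, -0.02 for Idh3b and Mdh2, -0.03 for Ogdh, 0.05 for Mdh1, -0.04 for Dlat, -0.06 for Acly, 0.16 for Gpt2 and -0.01 for D2hgdh. The log2 ratios that changed sign there were 0.07 for Mdh1/Mdh2, -0.04 for Idh3b/Idh3g, -0.07 for Ogdh/Pdha1, -0.10 for Ogdh/Dlst, 0.19 for Glul/Glud1 and 0.05 for Aco1/Cs. With 1 library left out at a time, the log2 fold changes that crossed 0 ranged from -0.07 to 0.06 for Idh2, -0.12 to 0.06 for Pck2, -0.06 to 0.04 for Acly, -0.09 to 0.40 for Glul, -0.10 to 0.12 for Cs, -0.01 to 0.07 for Aco1, -0.02 to 0.05 for Dlst, -0.05 to 0.04 for Suclg2, 0.00 to 0.10 for Sucla2, -0.05 to 0.04 for Mdh2, -0.02 to 0.04 for Idh3b, -0.04 to 0.02 for Idh3g, -0.08 to 0.10 for Dlat, -0.16 to 0.15 for Gpt2, -0.09 to 0.12 for D2hgdh, -0.04 to 0.17 for Dld, -0.04 to 0.11 for Ogdh, -0.14 to 0.00 for Pdhb, -0.01 to 0.21 for Got2. The log2 ratios ranged from -0.15 to 0.04 for Mdh1/Mdh2, -0.05 to 0.09 for Sucla2/Suclg2, -0.04 to 0.08 for Idh3b/Idh3g, -0.08 to 0.11 for Ogdh/Pdha1, -0.09 to 0.14 for Ogdh/Dlst, -0.16 to 0.29 for Glul/Glud1, -0.15 to 0.10 for Acly/Cs, -0.10 to 0.10 for Aco1/Cs. Standard errors were 0.18 to 0.28 for Pcx, Idh1 and Gpt2, at 1.98 to 4.47 CPM, and 0.25 for Got1 and Glul at higher counts, so a low count alone does not set the precision.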
